A study of Mus musculus with 4 samples.

Results

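Cytosolic nucleic acid sensing was read in a mouse macrophage line through 10 genes, namely *Ddx58*, *Ifih1*, *Dhx58*, *Mavs*, *Tmem173*, *Tbk1*, *Zbp1*, *Trex1*, *Samhd1*, and *Adar*. The genes were taken by name, with earlier results of these data known. They are 10 of the 20144 genes that the arrays could be tied to. A probe, the short oligonucleotide on the array that binds one transcript, was assigned to a gene when its transcript accession carried that gene's symbol in the mouse RefSeq table of GRCm38.p6, where *Tmem173* is listed as *Sting1*. This gave 15 probes. *Ddx58*, *Ifih1*, *Zbp1*, *Samhd1*, and *Adar* had 2 probes each, and the other 5 genes had 1.

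J774.1 is a mouse monocyte-macrophage cell line. The compounds given to its cells all block the proteasome. Epoxomicin acts on the 20S core, ONX0914 on the β5 subunit and its immunoproteasome counterpart β5i, and MG132 is labeled as a proteasome inhibitor without a named subunit. Each inhibitor was used at 1 μM for 4 hours, the control cells received the solvent DMSO, and the labels name no genetic modification of the cells. Total RNA of each condition went to 1 single-color Agilent array, so there were 4 arrays and 1 array per condition. The treatment label of the ONX0914 array reads ONX-0912, whereas ONX0914 is the compound in the protocol, so the array was placed by its title, ONX-5.

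Foreign or misplaced nucleic acid in the cytosol is detected by dedicated receptors. The RNA helicases RIG-I and MDA5 signal through the mitochondrial adaptor MAVS, and DNA sensing by cGAS signals through the adaptor STING. Both routes reach the kinase TBK1, which activates the transcription factor IRF3 and with it type I interferon genes, and several of the sensors are themselves interferon-stimulated genes. Other enzymes destroy, deplete, or mark the cell's own nucleic acids and so keep these routes quiet, and inherited loss of several of them causes interferon-driven disease in humans.

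The promoters are shown because 7 of the 10 genes stood above DMSO with every inhibitor in the values that follow, as 31.9% of 13462 genes did. *Zbp1*, among the 7, changed direction with another background correction, though only when outlier spots were kept in its fit. RefSeq windows of 300 bases, with 250 bases before and 50 after the start of the gene, were found for 7 genes (10 windows, GRCm38.p6). The table held none for *Dhx58*, *Zbp1*, and *Tmem173*. Short motifs were searched on both strands: the core of the interferon-stimulated response element (ISRE), which is GAAA, any 2 bases, and GAAA again, the core of the gamma-activated site, TTCNNNGAA, and the core of the antioxidant response element, TGACNNNGC. The ISRE core was present in the windows of *Ddx58* and *Ifih1*, and 3.99% of the 27025 genes with a window hold it. The gamma-activated site core was present in *Samhd1* and in 1 of 3 *Adar* windows, against 9.55% of all genes, and the antioxidant core in *Mavs*, against 14.0%. The windows of *Trex1* and *Tbk1* held none of these motifs. A repeat with 1 base between its parts, GAAANGAAA, was added after the sequences had been seen, and it lies in *Ddx58* and in the same *Adar* window that holds the gamma-activated site core, against 3.7% of all genes. The 3 windows with a GAAA repeat are printed 5′ to 3′ on the strand of the gene, with both kinds of repeat in capitals. The *Ddx58* window is chr4:40239776-40240075 (minus strand), that of *Ifih1* is chr2:62646206-62646505 (minus strand), and that of *Adar* is chr3:89730468-89730767 (plus strand).
Ddx58: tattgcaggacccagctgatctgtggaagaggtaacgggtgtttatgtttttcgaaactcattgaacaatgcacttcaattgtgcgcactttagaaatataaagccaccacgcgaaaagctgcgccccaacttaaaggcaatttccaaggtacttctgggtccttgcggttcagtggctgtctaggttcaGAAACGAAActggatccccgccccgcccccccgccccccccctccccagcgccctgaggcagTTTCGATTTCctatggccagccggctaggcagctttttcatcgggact
Ifih1: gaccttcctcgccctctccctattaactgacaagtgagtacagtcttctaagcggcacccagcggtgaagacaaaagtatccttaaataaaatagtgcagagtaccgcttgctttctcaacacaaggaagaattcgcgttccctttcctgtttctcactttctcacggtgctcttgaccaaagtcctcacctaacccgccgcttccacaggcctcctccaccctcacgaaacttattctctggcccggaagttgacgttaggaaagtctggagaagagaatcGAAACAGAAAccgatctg
Adar: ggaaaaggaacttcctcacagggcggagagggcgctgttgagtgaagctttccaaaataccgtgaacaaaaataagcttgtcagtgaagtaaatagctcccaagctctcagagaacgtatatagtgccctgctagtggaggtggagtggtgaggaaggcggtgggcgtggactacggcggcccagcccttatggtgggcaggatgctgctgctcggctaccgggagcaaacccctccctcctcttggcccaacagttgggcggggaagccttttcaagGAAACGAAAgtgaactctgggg
In *Ddx58* the ISRE core took bases 253 to 262 of the window and read on the opposite strand, and the repeat with 1 base between took bases 191 to 199. In *Ifih1* the ISRE core took bases 283 to 292. In *Adar* the repeat with 1 base between took bases 279 to 287, and the gamma-activated site core, bases 273 to 281, overlaps it. A match of letters is a description of the window and shows no binding.

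Values are processed signals, that is, the brightness of a spot after the scanner software subtracted the background. To compare arrays, the log2 of each signal was taken and the 75th percentile of the array's own spots was subtracted, a signal of 1647 under DMSO, 1448 under MG132, 1669 under epoxomicin, and 1603 under ONX0914. Differences and folds are on this scaled basis, and the threshold for a gene to count as higher or lower was 2-fold, which is 1 on the log2 scale. There is no replicate culture, so no difference has a *P* value. The error beside a log2 difference is the scanner software's own error of both signals, which covers the reading of 1 RNA sample and not the spread between cultures. It was 0.204 for the main probe of 9 genes and up to 0.215 for *Zbp1*. For bright probes the software's error was close to a fixed share of the signal. Under DMSO it was 318.7 on 3187 for *Ddx58* and 2318 on 23183 for *Trex1*. The value of 0.204 is therefore nearly a constant and not a spread measured on these genes, whose probes had 1 spot each. The median SD between spots of one probe, where probes were repeated, was 0.0545 to 0.0601 on the log2 scale. All 10 main probes, the brighter one of each gene, were well above background on all 4 arrays, and no spot of the 15 probes was marked as an outlier. All arrays lay on 1 slide that was scanned once. Of 8 macrophage markers, 7 had a probe, and these were well above background on every array. Their summed signal, before scaling between arrays, ranged from 299683 with MG132 to 407339 with DMSO. Within that list *Lyz2* differed from DMSO by −0.60, −1.01, and 0.14 on the log2 scale in the order MG132, epoxomicin, ONX0914, *Mpeg1* by −0.78, −0.79, and −0.08, and *Itgam* by 0.35, −0.05, and −0.28. The others were *Cd14* at −0.38, −0.42, and −0.06 and *Csf1r* at −0.16, −0.14, and −0.03. *Fcgr1* stood at −0.14, −0.03, and 0.04 and *Adgre1* at −0.13, −0.0001, and −0.04. The B cell markers were at background on every array (0 of 4 detected). In the T cell list *Cd3e* and *Cd4* were detected on all 4 arrays, and *Cd3d* and *Cd8a* on none. Of the neutrophil list *S100a8* was detected on all 4 arrays, with differences of −1.01, −1.08, and −0.46. *S100a9* and *Mpo* were detected on none, and *Ly6g* had no probe. In the epithelial list no marker was detected with DMSO. *Krt8* was detected with MG132 and epoxomicin, at signals of 37.8 and 121, and *Krt18* with epoxomicin, at 33.7. *Epcam* and *Cdh1* were detected on none. Of the fibroblast list *Col1a2* was detected on every array, *Pdgfra* with DMSO only, and *Col1a1* and *Dcn* on none. Fewer cells of a type and less RNA per cell cannot be told apart in such RNA, and the part of these markers in the results was not tested.

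At any size of difference, 8 of the 10 genes lay above DMSO under MG132, 8 under epoxomicin, and 9 under ONX0914, where 47.7%, 46.7%, and 49.1% of all genes compared did. With MG132, 5 of 10 genes were at least 2-fold higher, against 7.25% of the 13775 genes compared. With epoxomicin the same 5 genes, *Ddx58*, *Ifih1*, *Dhx58*, *Trex1*, and *Adar*, were at least 2-fold higher, against 8.49% of 13870, and 6.05% of 13614 genes passed with both. With ONX0914, 2 of 10, *Dhx58* and *Trex1*, reached 2-fold, against 3.27% of 13791. None was 2-fold lower with any inhibitor, where 3.69% of all genes were so under MG132, 4.41% under epoxomicin, and 1.4% under ONX0914. The median log2 difference of the 10 genes was 1.07 under MG132, 1.20 under epoxomicin, and 0.68 under ONX0914, beside medians over all genes compared of −0.02, −0.04, and −0.01. The 3 comparisons share the DMSO array, so any peculiarity of that array enters each of them.

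**Figure D1:**
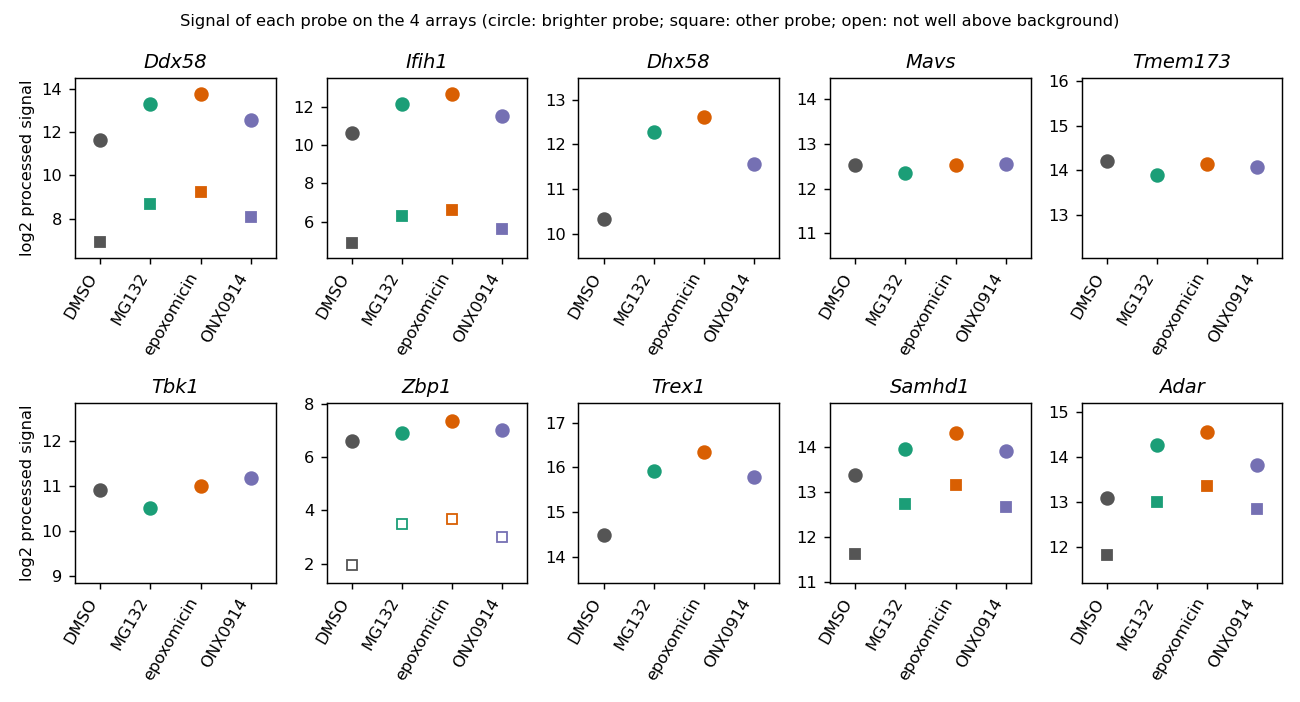
Log2 processed signal (vertical axis, before scaling between arrays) of every probe of the 10 genes on the arrays for DMSO, MG132, epoxomicin, and ONX0914. Circles mark the brighter probe, squares the other one, and open symbols a signal not well above background. Each panel has its own axis. The 3 inhibitor arrays lie above DMSO for *Ddx58*, *Ifih1*, *Dhx58*, *Zbp1*, *Trex1*, *Samhd1*, and *Adar*, and close to it for *Mavs* and *Tmem173*.

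Among the RNA sensors, *Ddx58* (NM_172689), which encodes RIG-I, a helicase that binds short double-stranded RNA with a 5′ triphosphate, had a signal of 3187 under DMSO, 9867 under MG132, 13579 under epoxomicin, and 5960.5 under ONX0914. All 3 inhibitor arrays lay above DMSO. The log2 differences were 1.82 (3.52-fold) under MG132, 2.07 (4.20-fold) under epoxomicin, and 0.94 (1.92-fold) under ONX0914, the last just under the threshold. A second, dimmer probe of *Ddx58* gave signals of 122, 415, 609, and 269 in the same order. Its differences were larger, at 1.95, 2.30, and 1.18, and with it *Ddx58* passed 2-fold with ONX0914 as well.

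*Ifih1* (NM_027835) encodes MDA5, the helicase for long double-stranded RNA. Its signal was 1602 under DMSO, 4439 under MG132, 6549 under epoxomicin, and 2869 under ONX0914. The log2 differences were 1.65 (3.15-fold), 2.01 (4.03-fold), and 0.88 (1.84-fold), so that *Ifih1* kept close to *Ddx58* with every inhibitor and also stayed under 2-fold with ONX0914. The second probe was faint, with signals of 30.0 under DMSO, 78.8 under MG132, 96.5 under epoxomicin, and 49.4 under ONX0914. It gave smaller differences of 1.58, 1.67, and 0.76, with errors between 0.297 and 0.325.

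*Dhx58* (NM_030150) encodes LGP2, the third RIG-I-like receptor, which lacks the signaling domains of the other two and modulates them. It had a signal of 1289.6 under DMSO, 4949 under MG132, 6247 under epoxomicin, and 3008 under ONX0914. Its differences of 2.13 (4.36-fold) and 2.26 (4.78-fold) were the largest among the brighter probes of the 10 genes with MG132 and epoxomicin, although the second *Ddx58* probe gave 2.30 with epoxomicin. With ONX0914 the difference was 1.26 (2.40-fold). Among all genes compared, the differences of *Dhx58* lay at the 98.3, 98.1, and 97.8 percentile with MG132, epoxomicin, and ONX0914.

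The adaptors differed little from DMSO. *Mavs* (NM_144888), the mitochondrial adaptor of RIG-I and MDA5, had a signal of 5883 under DMSO, 5229 under MG132, 5888 under epoxomicin, and 6021 under ONX0914. Its log2 differences of 0.02, −0.02, and 0.07 were smaller than the error of 0.204. *Tmem173* (NM_028261), which encodes STING, the adaptor of cGAS on the endoplasmic reticulum, had signals of 18832, 15328, 18249.6, and 17267 in the same order of arrays. Its differences of −0.11, −0.06, and −0.09 were also within the error. The signs of these small values were not stable, and with *Hprt* as the only scaling *Tmem173* stood at 0.09 with MG132 and 0.10 with epoxomicin.

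*Tbk1* (NM_019786), the kinase downstream of both adaptors, had a signal of 1932 under DMSO, 1456 under MG132, 2049 under epoxomicin, and 2294 under ONX0914. The log2 difference was −0.22 under MG132, 0.06 under epoxomicin, and 0.29 under ONX0914. The MG132 and ONX0914 arrays thus lay on opposite sides of DMSO, each slightly beyond the error of 0.204, and all 3 values stayed under 1.5-fold. With *Hprt* as the only scaling the MG132 value was −0.02, within the error. In this gene ONX0914 gave the highest level of the inhibitors.

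*Zbp1* encodes a sensor of left-handed (Z-form) DNA and RNA that can trigger necroptosis. Its brighter probe (NM_001139519) was faint, with signals of 96.7 under DMSO, 120.2 under MG132, 163 under epoxomicin, and 130.2 under ONX0914. All 3 inhibitor arrays were higher, with differences of 0.50 (1.41-fold), 0.73 (1.66-fold), and 0.47 (1.38-fold), but none reached 2-fold. The direction depended on the background correction, and with normexp, a model that fits background and signal jointly, the differences were −0.56, −0.64, and −0.79. This fit kept outlier spots. With outlier spots left out of the normexp fit, the differences kept the direction of the main values. The other probe (NM_021394) was not well above background on any array, with signals between 3.86 and 12.8, and gives no fold.

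Among the enzymes that act on the cell's own nucleic acids, *Trex1* (NM_011637), the main cytosolic DNA exonuclease, had a signal of 23183 under DMSO, 62093 under MG132, 83743 under epoxomicin, and 56278 under ONX0914. Its differences were 1.61 (3.04-fold), 1.83 (3.56-fold), and 1.32 (2.49-fold). The value with ONX0914 was the highest of the 10 genes for that inhibitor. *Trex1* and *Dhx58* were thus the 2 genes at least 2-fold higher with all 3 inhibitors, a criterion that 2.02% of 13462 genes met.

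*Samhd1* encodes a phosphohydrolase that depletes deoxynucleoside triphosphates. Its brighter probe (NM_001139520) had a signal of 10622 under DMSO, 16005 under MG132, 20490.2 under epoxomicin, and 15347 under ONX0914. The differences of 0.78 (1.71-fold), 0.93 (1.90-fold), and 0.57 (1.48-fold) all fell short of 2-fold. The other probe, assigned to another transcript accession (NM_018851), had signals of 3159, 6832, 9065, and 6535 and was 2.46-fold, 2.83-fold, and 2.13-fold higher. All 3 inhibitor arrays were above DMSO with both probes, and the call at 2-fold depended on the probe.

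*Adar* (NM_001038587) encodes the enzyme that converts adenosine to inosine in double-stranded RNA and so marks it as self. Its brighter probe had a signal of 8664 under DMSO, 19604 under MG132, 24211 under epoxomicin, and 14504 under ONX0914. The differences were 1.36 (2.57-fold), 1.46 (2.76-fold), and 0.78 (1.72-fold). The other probe, with signals of 3623, 8169, 10469.6, and 7331, gave 1.36, 1.51, and 1.06. The probes gave nearly the same value with MG132 and epoxomicin, and with ONX0914 only the dimmer one passed 2-fold.

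**Figure D2:**
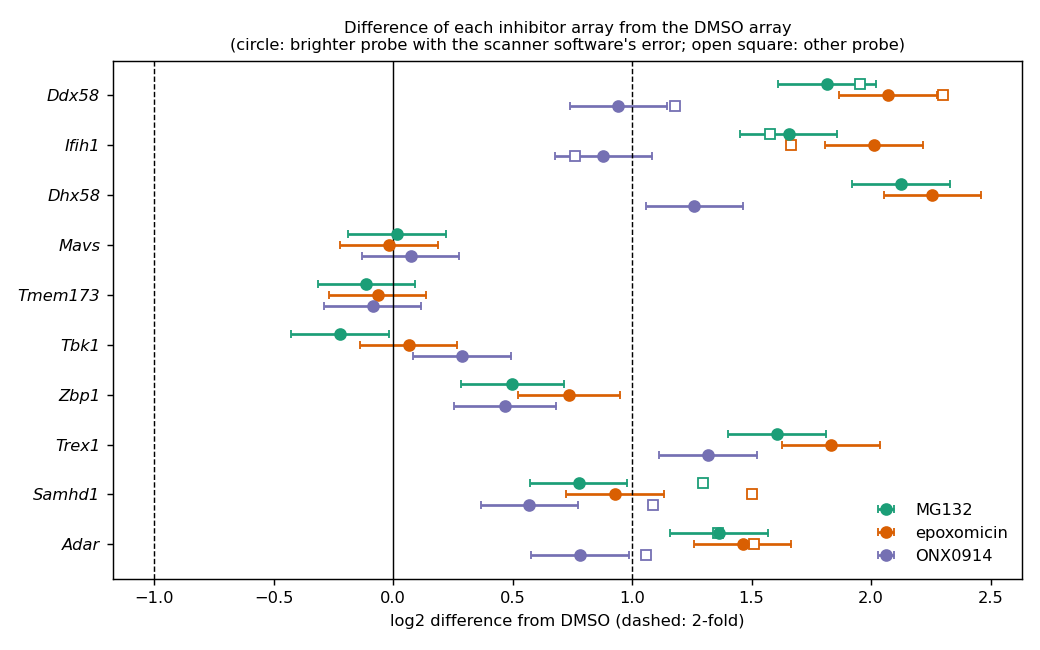
Log2 difference of each inhibitor array from the DMSO array (horizontal axis) for the 10 genes. Circles are the brighter probe with the scanner software's error as a bar, open squares the other probe where it was well above background on all 4 arrays, and dashed lines 2-fold. *Ddx58*, *Ifih1*, *Dhx58*, *Trex1*, and *Adar* lie beyond 2-fold with MG132 and epoxomicin, and the squares of *Samhd1* lie to the right of its circles.

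The choice of probe mattered most for ONX0914. When the other probe stood for the genes that had one well above background, a setting chosen after the data had been seen, 5 genes were at least 2-fold higher with ONX0914 in place of 2. They were *Ddx58*, *Dhx58*, *Trex1*, *Samhd1*, and *Adar*. With MG132 and epoxomicin the count went from 5 to 6, with *Samhd1* added. No share of all genes is at hand for this choice of probe, so these counts cannot be set against one.

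**Figure D3:**
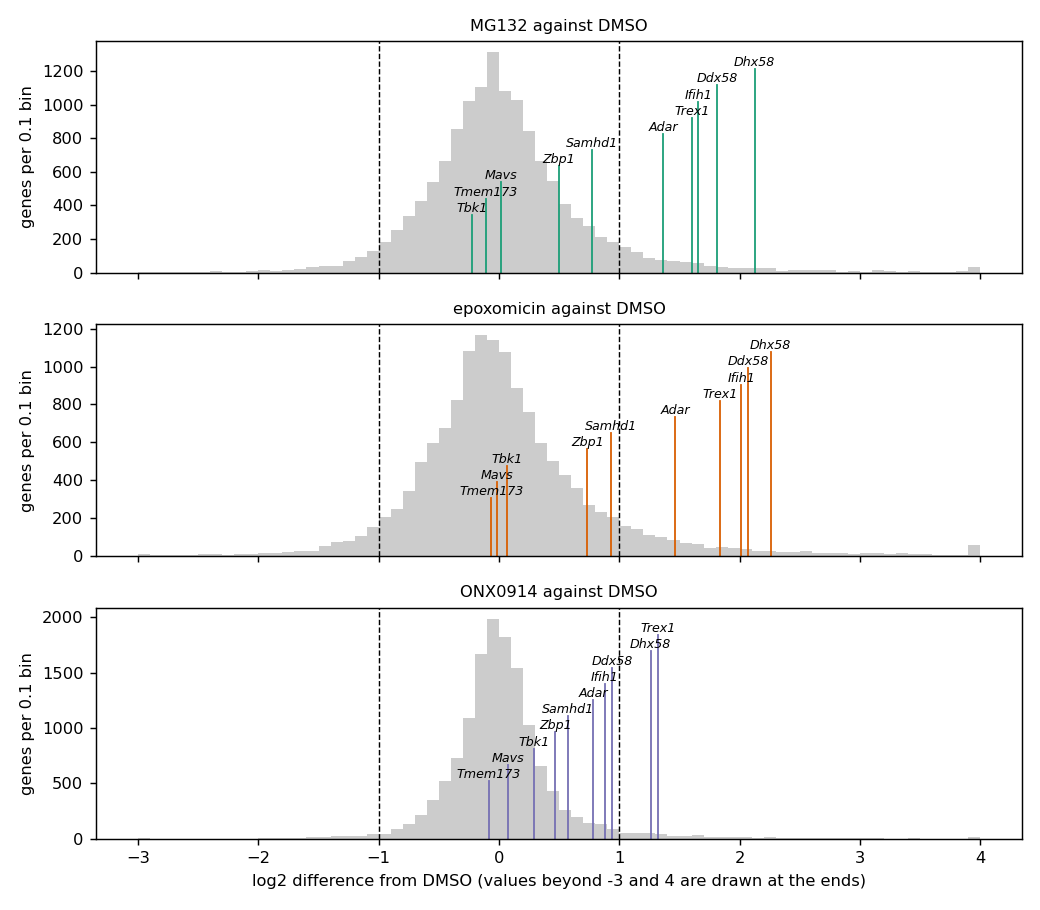
Histograms of the log2 difference from DMSO over all genes compared (gray, 0.1 per bin; vertical axis, number of genes) for MG132, epoxomicin, and ONX0914, with colored lines at the brighter probe of each of the 10 genes. Line heights only keep the names apart, and dashed lines mark 2-fold. *Mavs* and *Tmem173* lie in the middle of each distribution, and *Dhx58*, *Ddx58*, *Ifih1*, and *Trex1* lie in the right tail.

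The inhibitors were compared with each other at the same dose and time, which made 3 pairs. Epoxomicin gave the highest level, MG132 the next, and ONX0914 the lowest for 7 of 10 genes, an order that 25.4% of the 12728 genes measured on all arrays showed. Among the 707 of these genes that were at least 2-fold higher with both MG132 and epoxomicin, the share was 73.7%. The 7 genes were *Ddx58*, *Ifih1*, *Dhx58*, *Zbp1*, *Trex1*, *Samhd1*, and *Adar*, and the exceptions were *Mavs*, *Tmem173*, and *Tbk1*. Epoxomicin against ONX0914 gave 2 genes at least 2-fold higher, against 4.42% of 13792 genes. They were *Ddx58* (1.13 on the log2 scale, 2.19-fold) and *Ifih1* (1.13, 2.19-fold), and *Dhx58* lay just under the threshold at 1.99-fold. With its other probe *Ifih1* was 1.87-fold higher and lost the call. *Dhx58* passed with *Hprt* alone, the percentile over detected probes, quantile normalization, or no scaling. *Adar* was 1.60-fold, *Trex1* 1.43-fold, and *Samhd1* 1.28-fold higher with epoxomicin than with ONX0914. *Zbp1* was 1.20-fold higher.

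MG132 against ONX0914 gave no gene at 2-fold, where the share of all genes was 3.04% of 13706. The differences were 0.87 for *Ddx58*, 0.86 for *Dhx58*, and 0.78 for *Ifih1*, each with an error of 0.204, and 0.29 for *Trex1*. *Tbk1* was the one gene clearly on the other side, at −0.51 (0.702-fold). Epoxomicin and MG132 lay close to each other, with differences between −0.03 for *Mavs* and 0.36 for *Ifih1*, and none of the genes reached the 2-fold that 0.814% of 13631 genes did. For *Dhx58*, *Samhd1*, and *Adar* the difference of 0.13, 0.15, and 0.10 between these inhibitors was within the error. For *Zbp1* the difference of MG132 from ONX0914, 0.03, was within its error of 0.215, and for *Samhd1* it was 0.21, about the size of the error. Of the 7 genes in the order, *Ddx58*, *Ifih1*, and *Trex1* exceeded the error at both steps by more than 0.01 with the brighter probe and the scaling used. With the second *Ifih1* probe, epoxomicin minus MG132 was 0.09, within its error of 0.237. Without scaling, *Trex1* differed from DMSO by 1.42 with MG132 and 1.28 with ONX0914, which lie closer together than the error. Neighbors in the order that differ by less than the error cannot be ranked.

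**Figure D4:**
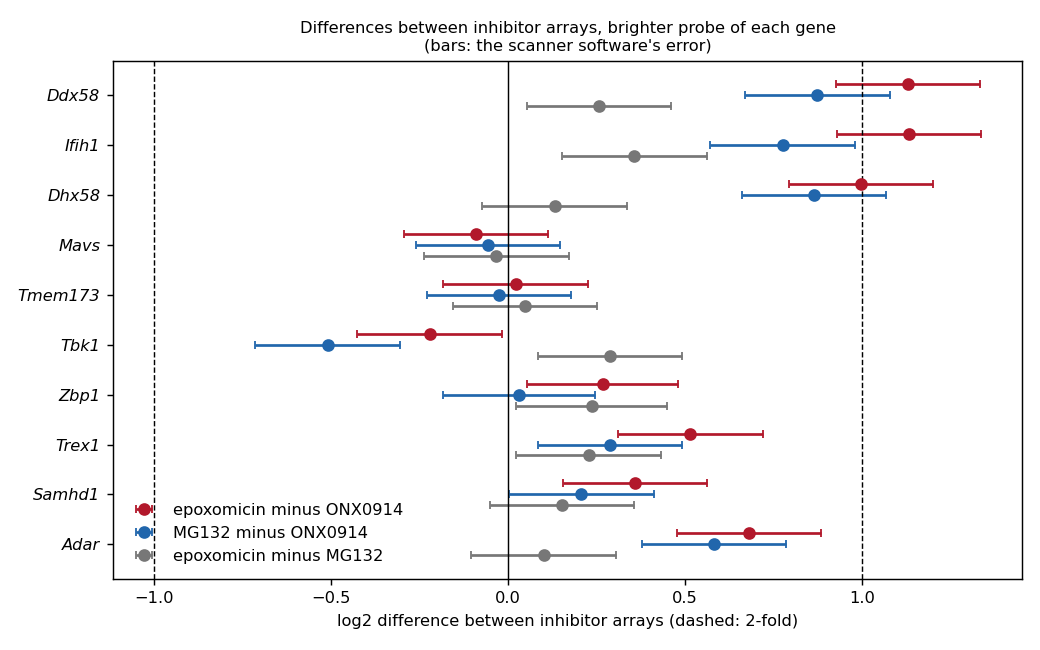
Log2 difference between inhibitor arrays (horizontal axis) for the brighter probe of the 10 genes, with the scanner software's error as bars and dashed lines at 2-fold. Epoxomicin minus ONX0914 is 1.13 for *Ddx58* and *Ifih1*, whereas the gray points for epoxomicin minus MG132 all lie between −0.03 and 0.36.

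The genes whose pattern over the 4 arrays was most like those of *Dhx58* and *Trex1* were looked up among 12718 genes, by the Euclidean distance between log2 levels after each gene was centered on its own mean. For *Dhx58* this was *Trim30a* (NM_009099), at a distance of 0.0424. Its signals were 2154 under DMSO, 8204 under MG132, 10744 under epoxomicin, and 5001 under ONX0914, and its differences were 2.11, 2.30, and 1.25. For *Trex1* it was *Phf11b* (NM_001164327), at a distance of 0.111, with differences of 1.46, 1.73, and 1.20. Both distances are below the error of 0.204 of a single log2 difference, so which gene lies nearest cannot be settled with these arrays.

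Other genes of the same pathways were read from lists that the choice of the 10 genes did not use. These lists too were drawn up with earlier results of these data known. Their counts at 2-fold stand beside the shares of all genes given for the 10 genes, 7.25% higher under MG132, 8.49% under epoxomicin, and 3.27% under ONX0914, with lists of few genes giving coarse shares. The other cytosolic sensors came closest to the 10 genes in their medians. Of 16 genes measured, 8 were at least 2-fold higher with MG132, 9 with epoxomicin, and 4 with ONX0914, none was lower, and the medians were 1.05, 1.23, and 0.46. *Oasl1*, an inducible oligoadenylate synthetase-like protein, had signals of 2486 under DMSO, 32339 under MG132, 50224 under epoxomicin, and 15034 under ONX0914, which is 14.8-fold, 19.9-fold, and 6.21-fold higher. *Ifi204*, a DNA sensor of the p200 family, was 6.49-fold, 8.26-fold, and 3.14-fold higher. *Oasl2* was 6.94-fold, 7.52-fold, and 3.69-fold higher, and *Oas2*, which makes the second messenger that activates RNase L, 3.10-fold, 3.71-fold, and 2.03-fold. *Ddx41*, a helicase proposed as a DNA sensor, was nearest to DMSO, with differences of −0.09, −0.18, and 0.10.

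Of 15 measured regulators of RIG-I-like receptors and MAVS, 3 were at least 2-fold higher under MG132, 4 under epoxomicin, and 2 under ONX0914, and the medians of 0.15, 0.14, and 0.12 were well below those of the sensors. *Usp18*, a protease that removes ISG15 and restrains interferon receptor signaling, was 7.69-fold, 9.25-fold, and 4.22-fold higher. *Nlrc5*, known for the control of MHC class I genes and reported to bind RIG-I and MDA5, was 5.20-fold, 5.78-fold, and 2.94-fold higher. *Pcbp1*, which promotes turnover of MAVS, was nearest to DMSO at −0.03, −0.09, and −0.04.

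Of 11 measured STING regulators, none was 2-fold higher with MG132 or ONX0914 and 1 with epoxomicin, *Insig1* at 1.04, named after its value was seen, which is near the share of all genes. The medians were 0.36, 0.35, and 0.05. In the list for the TBK1 complex and signaling to IRF3, 3 of 16 genes were at least 2-fold higher with MG132, 4 with epoxomicin, and 1 with ONX0914, with medians of 0.34, 0.32, and 0.18. That 1 gene was *Irf7*, the interferon-inducible relative of *Irf3*, with signals of 596, 4139, 5305, and 2264 and increases of 7.90-fold, 8.78-fold, and 3.91-fold. *Traf3*, a ubiquitin ligase of the MAVS complex, stayed at −0.02, −0.15, and 0.15.

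Among the 4 cell death partners of ZBP1, 1 gene lay at least 2-fold above DMSO and 1 at least 2-fold below it under MG132, and 1 lay above it under epoxomicin, counts too small to set against the shares of all genes. With MG132 these were *Mlkl*, the executor of necroptosis, at 1.05 and *Casp6*, a caspase, at −1.07, both named after their values were seen. *Casp8* differed by −0.10, 0.05, and less than 0.01 in size. Of 14 other enzymes that clear or mark self nucleic acids, none reached 2-fold in either direction with MG132 or ONX0914 and 1 with epoxomicin, *Pnpt1*, a mitochondrial exoribonuclease, at 1.15 and also named after its value was seen. Their medians were −0.14, −0.22, and −0.06, so this list lay near DMSO, unlike *Trex1* and *Adar*. *Apobec3*, a cytidine deaminase, was at 0.03, −0.12, and 0.29.

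Targets of IRF3 had the largest medians of the lists. Of 8 measured genes, 6 were at least 2-fold higher with each inhibitor, with medians of 3.38, 3.99, and 2.93. *Rsad2*, an antiviral radical enzyme also called viperin, was 68.6-fold higher with MG132, 101-fold with epoxomicin, and 39.8-fold with ONX0914. *Ifit3* was 18.6-fold, 25.6-fold, and 12.7-fold higher and *Ifit1*, which binds RNA that lacks cap methylation, 10.9-fold, 16.5-fold, and 11.1-fold. *Ccl5*, a chemokine, differed by −0.17, −0.15, and −0.18. *Ifnb1* was the 1 gene of the list at least 2-fold lower with MG132 and with ONX0914, where it was not well above background, and at 0.22 with epoxomicin. No reference gene reached 2-fold in either direction (0 of 10), and *Ppia* was at 0.01, −0.12, and −0.02.

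**Figure D5:**
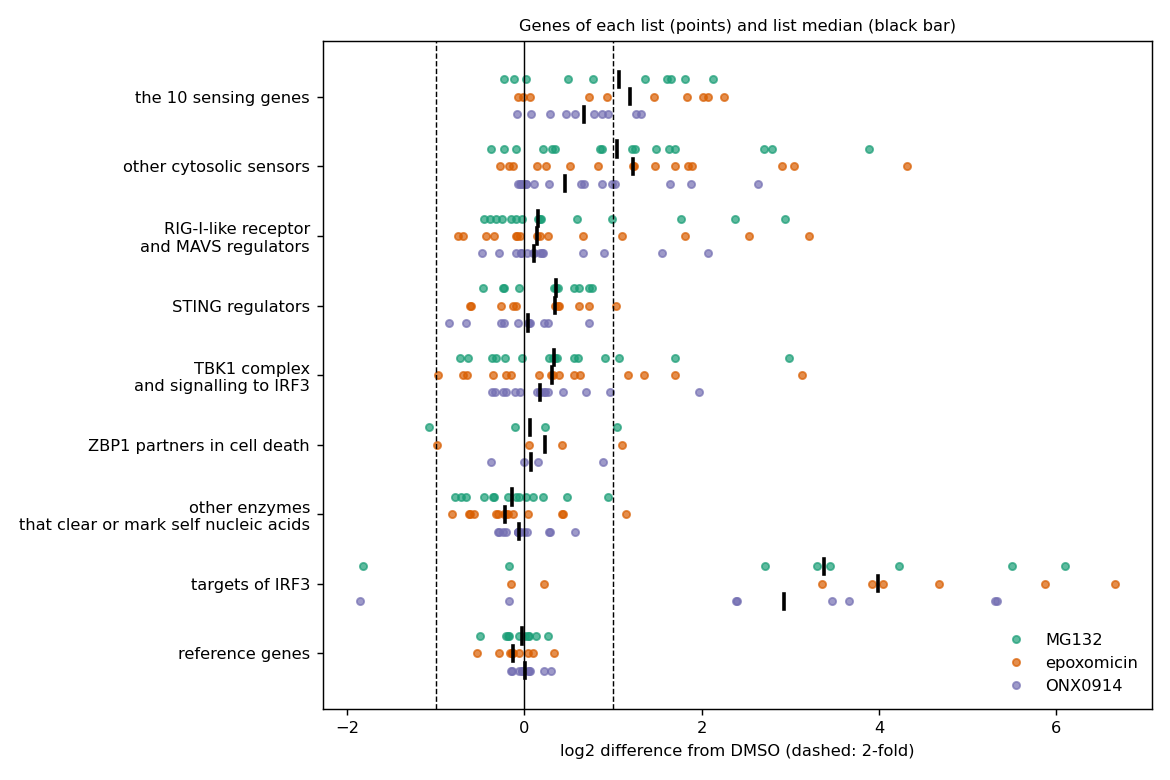
Log2 difference from DMSO (horizontal axis) of each measured gene, by list, with MG132 (green), epoxomicin (orange), and ONX0914 (purple). Black bars are list medians, dashed lines 2-fold, and a value against an array where the gene was not well above background is a bound. The 10 sensing genes have medians of 1.07, 1.20, and 0.68, and the reference genes lie around 0.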

How the data were processed

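Total RNA of J774.1 cells was hybridized to 4 single-color (Cy3) arrays. The authors deposited the scanner output of Feature Extraction 10.7.1.1, in which the processed signal is an intensity after background subtraction within the array and carries a software error. They also deposited a table of log2 values relative to each probe's median. A human design is named in the Methods and a mouse design in the file headers, so probes were named through mouse RefSeq accessions (26581 of 39429 probes).

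Control spots and spots marked as outliers (159 to 194 per array) were left out, the log2 was taken, and the 75th percentile over noncontrol spots was subtracted. The brightest probe represented a gene. A signal not well above background was replaced by a bound, and a gene entered if either array of the comparison detected it. No test was possible with 1 array per condition. The spread between spots of one probe (median SD, 0.0545 to 0.0601 on the log2 scale) was the other error at hand, and a change of over 0.0850 under an alternative counts as a move.

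The genes, lists, and motifs were chosen with earlier results of these data known. Named from each list were up to 4 genes at least 2-fold from DMSO with all 3 inhibitors, by the size of their median difference, and the gene nearest to DMSO. *Cxcl10* met this rule and is not described further, and 1 other gene that the rule takes is not reported here. *Ddx60* and *Rnaset2b* had no named probe, and *Rnf125*, *Zcchc3*, *Usp13*, *Trex2*, and *Ifna4* were not well above background. The alternatives were other scalings (the median, detected probes, all probes, quantile normalization, *Hprt* alone, or none), normexp (offset 50) with and without outlier spots, the authors' log2 table, the mean over probes or the other probe, other calls, and thresholds of 1.5-fold and 4-fold. Normexp used the median pixel brightness of a spot. The other probe and the percentile over all probes were chosen after the data had been seen. The calculations were run on simulated data in which every change lay beyond 2-fold and the noise was about the spread between spots. That run does not test calls close to 2-fold or the spread between cultures. R 4.3.3 with limma 3.58.1 and Python 3.11.15 with numpy 2.4.6, pandas 2.3.3, and matplotlib 3.10.9 were used.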

Additional observations from a re-analysis of the deposited data

How the results depend on the processing

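Of the 12 differences at least 2-fold from DMSO, none changed direction under the 14 settings that gave differences. Other scalings moved differences by up to 0.204 on the log2 scale, too little to turn a 2-fold one. Keeping outlier spots, another detection call, and the processed signal in place of bounds moved none of the 30 differences. They could not move any, since no spot of these genes was an outlier and every main probe was well above background. These settings are among the 14 and add nothing to the stability of the directions. No gene was lower at 2-fold under any of the 16 alternatives. With a 4-fold threshold, 1 gene was higher with MG132 in place of 5, 3 with epoxomicin in place of 5, and 0 with ONX0914 in place of 2, and epoxomicin against ONX0914 gave 0 in place of 2. The share of all genes at 4-fold was 1.96%, 2.43%, 0.827%, and 0.856%. With a 1.5-fold threshold, 5 genes were higher with ONX0914, 4 with epoxomicin against ONX0914, and 3 with MG132 against ONX0914, where the count at 2-fold was 0. The share of all genes at 1.5-fold was 7.64%, 11.3%, and 8.7%. With *Hprt* as the only scaling, 2 genes were higher with MG132 against ONX0914. With the other probe of a gene, 5 were higher with ONX0914 and 1 with epoxomicin against ONX0914, where *Ifih1* fell to 1.87-fold. No share of all genes is at hand for the *Hprt* scaling or for the other probe. The order epoxomicin, MG132, ONX0914 was found in 6 to 8 genes. Under the scaling used, the median over all 20144 genes, dim ones included, stood 0.12, 0.10, and 0.08 above DMSO with MG132, epoxomicin, and ONX0914, and without scaling the values were −0.07, 0.12, and 0.04. *Hprt* differed by −0.20, −0.17, and −0.03. Normexp moved 20 of 30 differences, and with outlier spots left out of its fit, 5. With that fit *Zbp1* stood at 0.35, 0.27, and 0.12. The mean over both probes put *Zbp1* at 1.11, 1.22, and 0.77, although one of them was not well above background. The causes of these changes were not tested. No paired analysis was possible because each condition had 1 array. The number of arrays limits the precision.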
